A study of Homo sapiens with 8 samples.

Results

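The genes described here are the 7 core writers and erasers of DNA methylation, namely DNMT1, UHRF1, DNMT3A, DNMT3B, TET1, TET2 and TET3, of 34164 genes listed in the series. They were chosen by name, and all 7 were found by symbol in each of the deposited tables. RNA was sequenced from Kyse510 cells, an established esophageal squamous cell carcinoma (ESCC) line, in 8 libraries with 1 library per condition. The inhibitor libraries came from cells given DMSO (vehicle), or kept for 2 days in 7 µM SP2509, which inhibits the histone demethylase LSD1, in 7 µM UNC0642, which inhibits the H3K9 methyltransferase G9a, or in both. The doses of the combination are not given separately. In the knockdown libraries, Kyse510 cells stably carried a doxycycline- (Dox-) inducible shRNA against LSD1 or against G9a in a lentiviral vector, underwent 14 days of puromycin selection, and received either Dox for 2 days or no Dox. Each line carried 1 hairpin construct, the control of each knockdown was the same line without Dox, and a Dox-treated line with a nonsilencing hairpin was not analysed here, so that an effect of Dox itself and an effect of the hairpin cannot be told apart.

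DNA methylation is the addition of a methyl group to cytosine, in mammals mostly at CpG dinucleotides. DNMT1 copies the methylation pattern onto the new strand after replication, and UHRF1 brings it there by binding hemimethylated CpG sites and methylated H3K9, the histone mark that G9a writes. DNMT3A and DNMT3B methylate unmodified CpG sites de novo. The TET enzymes oxidize methylated cytosine, which leads to its removal, and need iron and alpha-ketoglutarate to do so. LSD1 and G9a have each been linked to DNMT1, LSD1 as a demethylase acting on the DNMT1 protein and G9a as a binding partner at replication sites. DNA methylation itself was not measured in these libraries, which report RNA levels only.

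Levels are given as FPKM (fragments counted per gene, corrected for gene length and sequencing depth), and the reads behind each value were recovered from the steps of the FPKM scale. Library totals ranged from 15662035 to 17889466 reads. A change is the log2 ratio of (FPKM + 1) between a treated library and its own control, and on this scale the changes of low genes appear smaller than they are. Calls required 3 things, namely a ratio of (FPKM + 1) of 1.3 or more up or down, 1 FPKM or more in either library, and an unadjusted p under 0.05 when the reads were compared by an exact binomial test (two-sided). That test, and the 95% interval given with each FPKM ratio (exact, from the same reads), compare 2 libraries and cover counting error only, since no condition has a replicate. The 3 inhibitor comparisons share the vehicle library and are therefore not independent. In bulk RNA, fewer cells of a kind and less RNA per cell cannot be told apart.

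The labels were checked on the targets and on cell type markers. With Dox, the shLSD1 line had 6.29 FPKM of KDM1A (the LSD1 gene) against 26.0 without, and the shG9a line had 4.76 FPKM of EHMT2 (the G9a gene) against 7.85. Among squamous markers, KRT5 ranged from 74.6 to 734 FPKM and TP63 from 18.3 to 127 FPKM over the 8 libraries. SOX2, also a squamous marker, had 18.3 FPKM in vehicle and fell to 4.94 (UNC0642), 0.636 (combination) and 0.313 FPKM (SP2509). The SOX2 fall after SP2509 was opposite to KRT5 (427 to 734 FPKM) and TP63 (79.1 to 127 FPKM). In the other treated inhibitor libraries KRT5 and TP63 were below vehicle too. Dox libraries had more SOX2, at 20.1 against 5.24 FPKM (shLSD1) and 38.8 against 5.99 FPKM (shG9a). KRT14 and KRT6A were low in vehicle (1.93 and 0.676 FPKM) and called up with each inhibitor treatment, to 8.31 and 20.03 FPKM with UNC0642, where KRT5 was called down (427 to 303 FPKM) and TP63 was 79.1 and 62.6 FPKM, not called. The part of these markers in the changes of the 7 genes was not tested. The leukocyte marker PTPRC stayed at or below 0.0425 FPKM. The fibroblast collagen gene COL1A1 was detected in every library, at 2.92 to 5.36 FPKM, and the endothelial marker PECAM1 reached 0.569 FPKM with UNC0642. Over all tested genes, the shifts were unequal between comparisons. In the shLSD1 line 2945 genes were called up and 1348 down, against 2005 and 1793 once the median change of genes at 5 FPKM or more (0.11 on the log2 scale) was set to 0. In the shG9a line 3922 were called up and 2065 down, against 2682 and 2592 after the same centring (0.14 on the log2 scale).

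Of the 7 genes, 6 passed the filter of 1 FPKM in every comparison, and TET1 passed it in none. Of 35 changes (7 genes in 5 comparisons), 15 were called, 7 up and 8 down. UHRF1 was called in all 5 comparisons, up in 4 and down in 1. DNMT1 was called in 3, up with Dox in both shRNA lines and down with SP2509, and the de novo enzymes DNMT3A and DNMT3B were called down in 2 comparisons each and up in none. TET2 was called down in 2, TET3 up in 1, and TET1 in 0.

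The share of all tested genes called is the background for these counts. With SP2509, 4 of 7 were down (DNMT1, UHRF1, DNMT3A, DNMT3B) and 0 up, where 37.5% of all tested genes were down, 18.2% up and 55.7% called either way. With UNC0642, 1 of 7 was up (UHRF1) and 0 down, against 15.8% up, 14.0% down and 29.8% either way. With the combination, 2 were up (UHRF1, TET3) and 2 down (DNMT3A, TET2), against 29.0% up, 29.1% down and 58.1% either way. In the shLSD1 line, 2 were up (DNMT1, UHRF1) and 1 down (TET2), against 22.7% up, 10.4% down and 33.1% either way. In the shG9a line, 2 were up (DNMT1, UHRF1) and 1 down (DNMT3B), against 30.0% up, 15.8% down and 45.8% either way. The 7 genes were not tested as a group against the others. The median log2 change of the 7 was -0.46 with SP2509, -0.05 with UNC0642, -0.02 with the combination, 0.06 in the shLSD1 line and 0.02 in the shG9a line, and that of all tested genes was -0.21, -0.01, -0.02, 0.13 and 0.18, respectively.

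**Figure D1:**
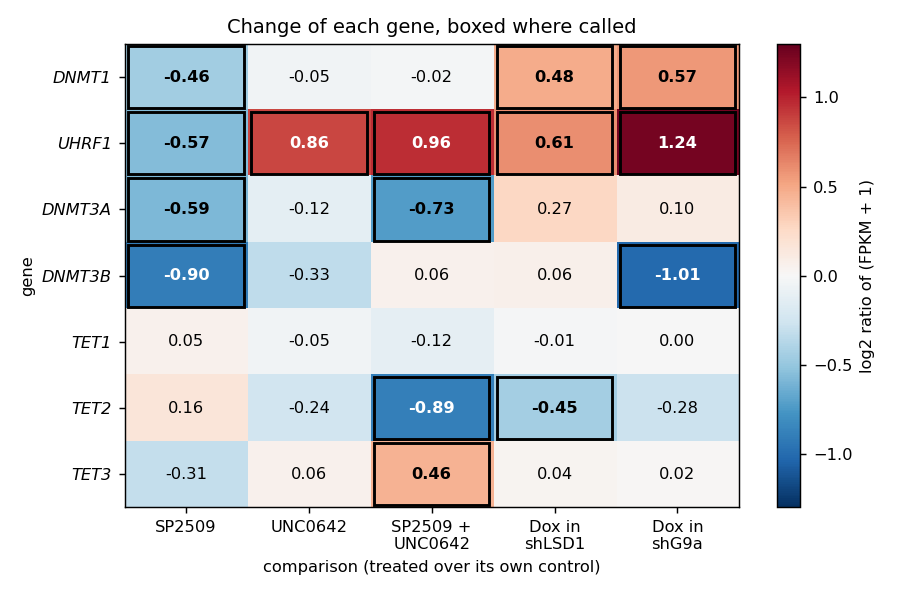
Log2 ratio of (FPKM + 1) of each of the 7 genes (rows) in the 5 comparisons (columns), treated library over its own control, with called changes boxed and in bold. The largest rise is that of UHRF1 with Dox in the shG9a line (1.24) and the largest fall that of DNMT3B in the same comparison (-1.01).

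UHRF1 had the widest range, and its regulatory sequence is shown because it and DNMT1 moved in the same direction in 3 comparisons. UHRF1 (ENSG00000276043) lies on the plus strand of chromosome 19 from 4903080 to 4962154 (GRCh38). RefSeq (GRCh38.p14) gives 3 starts for it, and the 250 bases before each were searched on both strands for the E2F forms TTTCCCGC, TTTCGCGC, TTTGGCGC and TTTGCCGC, in capitals below. A match was found before 2 of the 3 starts, against 2.79% of 35116 RefSeq start windows of the same length. Each form contains a CpG, and the UHRF1 windows hold 28, 32 and 41 CpG dinucleotides. The background windows were not matched for CpG content, so the shares are not like for like. The UHRF1 windows also belong to 1 gene, chosen after its changes were seen, and the middle and last windows overlap. They are therefore not separate draws, and the share of genes with a match before any of their starts was not determined. The window at chr19:4909894-4910143 lies outside annotated exons of GENCODE release 44, has 32 CpG dinucleotides (the median window has 11), and holds the match TTTCGCGC on the plus strand. The match before the first start, TTTCCCGC on the minus strand, is shown with 28 bases (chr19:4909473-4909500).
UHRF1, middle start, plus strand: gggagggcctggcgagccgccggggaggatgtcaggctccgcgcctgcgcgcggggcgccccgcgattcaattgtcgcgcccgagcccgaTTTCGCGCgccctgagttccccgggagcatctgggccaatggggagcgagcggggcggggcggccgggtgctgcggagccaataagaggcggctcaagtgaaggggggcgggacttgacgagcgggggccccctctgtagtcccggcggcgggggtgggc
UHRF1, first start, plus strand: aatgccgagttttcGCGGGAAAaaaatc
No other gene of the 7 had a match in its windows, DNMT1 included, which says only that these letters are not there. The windows lie before RefSeq starts, and the outermost starts of the deposited gene positions were not all searched. For DNMT3B the only window is chr20:32779602-32779851, with 3 CpG dinucleotides, whereas the gene starts at 32762385. The windows of UHRF1 and DNMT1 likewise do not lie before their outermost starts, 4903080 and 10231286. Of 13 promoter windows of S-phase and E2F target genes, 7 had a match. A match describes the sequence and is not evidence of a bound site.

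UHRF1, the reader of hemimethylated DNA, was at 8.38 FPKM in vehicle, 5.33 after SP2509, 16.1 after UNC0642 and 17.3 after the combination. In the genetic arm it had 3.16 FPKM in the shLSD1 line without Dox and 5.34 with Dox, and 3.63 FPKM in the shG9a line without Dox and 9.93 with Dox. Thus it was lowest with SP2509 among the inhibitor libraries, and both Dox libraries were above both uninduced ones. Its FPKM ratio was 1.92 with UNC0642 (95% interval 1.75 to 2.10; exact binomial p = 1.67e-47) and 2.74 with Dox in the shG9a line (2.40 to 3.12; exact binomial p = 3.37e-59). In the shLSD1 line the ratio was 1.69 (1.46 to 1.96; exact binomial p = 9.61e-13), whereas with SP2509 it was 0.636 (0.565 to 0.716; exact binomial p = 1.72e-14), so the LSD1 inhibitor and the LSD1 knockdown libraries moved in opposite directions. With the combination the ratio was 2.06 (1.88 to 2.26; exact binomial p = 8.10e-59). Of all tested genes, 97.5% had a lower change than UHRF1 in the shG9a line and 94.1% with UNC0642, against 88.7% in the shLSD1 line and 86.2% with the combination.

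DNMT1, the maintenance methyltransferase (ENSG00000130816, chromosome 19 from 10133345 to 10231286, minus strand), was the most abundant of the 7 in 6 of the 8 libraries. Its level was 22.1 FPKM in vehicle, 15.8 after SP2509, 21.3 after UNC0642 and 21.7 after the combination. SP2509 was thus the only inhibitor library set apart, with a ratio of 0.716 (0.681 to 0.754; exact binomial p = 6.30e-39), while the reads did not separate vehicle from UNC0642 (0.966, 0.921 to 1.01; exact binomial p = 0.141) or from the combination (0.984, 0.939 to 1.03; exact binomial p = 0.502). With Dox it rose in the shLSD1 line, from 6.66 to 9.70 FPKM (ratio 1.46, 1.35 to 1.57; exact binomial p = 3.72e-23). It also rose in the shG9a line, from 7.18 to 11.1 FPKM (ratio 1.55, 1.44 to 1.67; exact binomial p = 1.68e-32). The DNMT1 calls for SP2509 and for the shLSD1 line were lost when the median was set to 0, at log2 changes of -0.36 and 0.37. DNMT1 shares 83 exonic bases with S1PR2 on the same strand in GENCODE release 44, and how shared reads were assigned is not given in the sources used here.

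**Figure D2:**
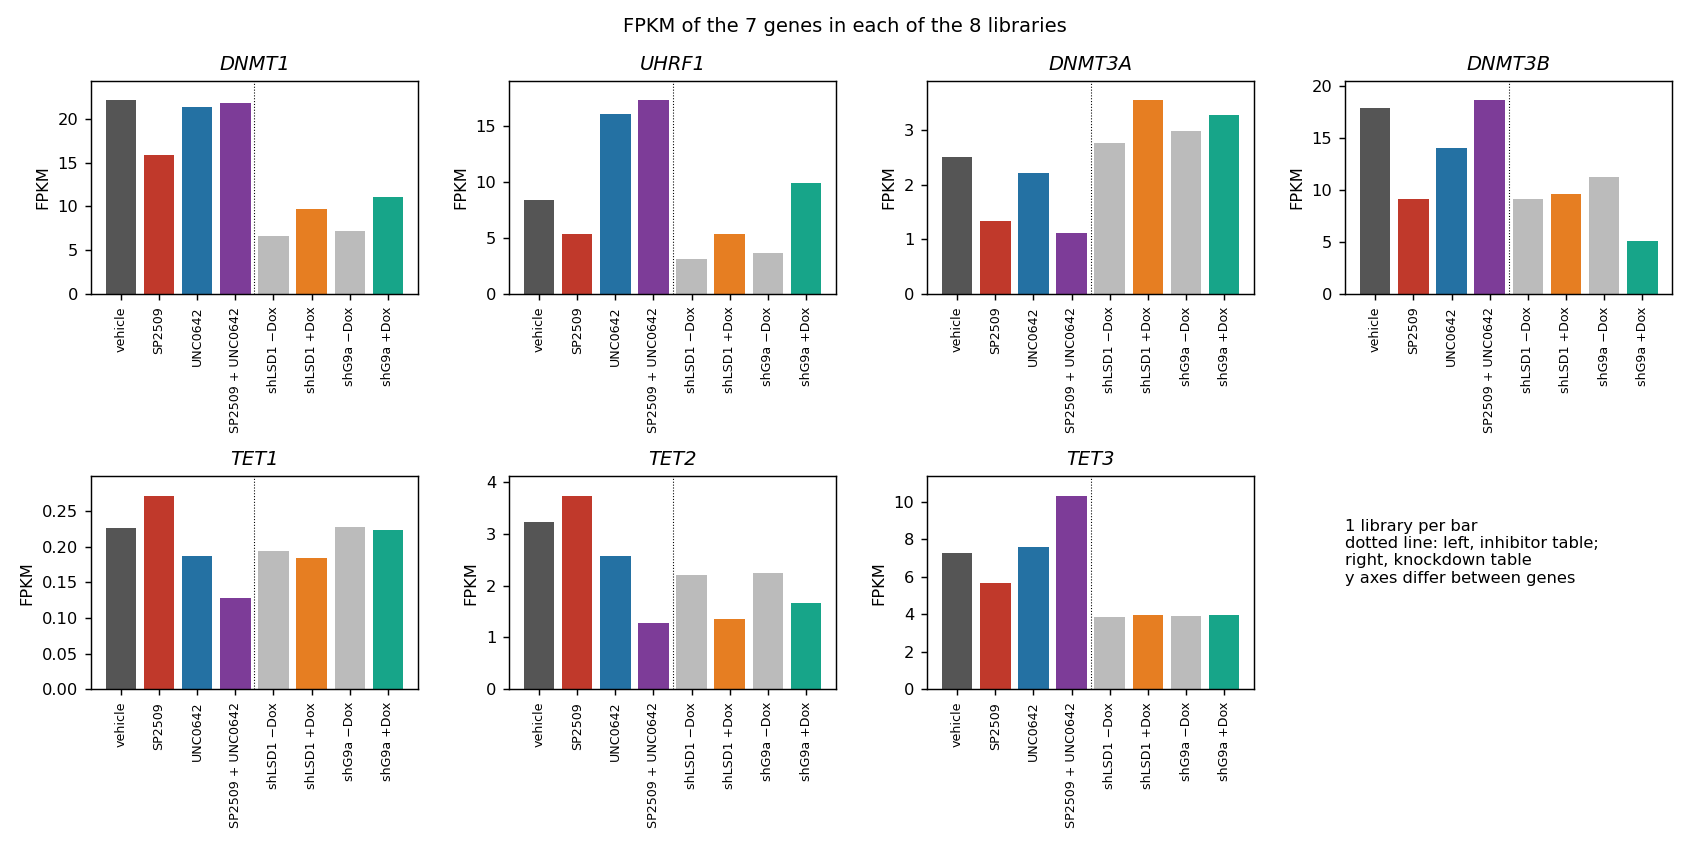
FPKM of the 7 genes in each of the 8 libraries, 1 library per bar, with the y axis set for each gene and a dotted line between the inhibitor and the knockdown table. UHRF1 is at 16.1 FPKM with UNC0642 and 17.3 with the combination against 8.38 with vehicle, and TET1 stays at or below 0.272 FPKM throughout.

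The de novo enzymes both fell with SP2509, whereas with the combination only DNMT3A, and with Dox in the shG9a line only DNMT3B, was called. DNMT3A (ENSG00000119772, chromosome 2 from 25227855 to 25342590) stood at 2.51 FPKM in vehicle, 1.34 after SP2509, 2.23 after UNC0642 and 1.12 after the combination, so both libraries that received SP2509 were low. The ratio was 0.534 with SP2509 (0.459 to 0.619; exact binomial p = 1.42e-17) and 0.445 with the combination (0.378 to 0.523; exact binomial p = 4.40e-25). In the genetic arm DNMT3A varied little, with 2.76 and 3.55 FPKM in the shLSD1 line without and with Dox, and 2.98 and 3.28 FPKM in the shG9a line. The reads separated the shLSD1 libraries (exact binomial p = 5.50e-06), but the ratio of 1.28 (1.15 to 1.43) stayed under the fold threshold.

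DNMT3B (ENSG00000088305, chromosome 20 from 32762385 to 32809356) measured 17.8 FPKM in vehicle, 9.11 after SP2509, 14.0 after UNC0642 and 18.6 after the combination. Each inhibitor alone was therefore below vehicle while the combination was not. The ratio was 0.511 with SP2509 (0.466 to 0.559; exact binomial p = 1.35e-50), 0.783 with UNC0642 (0.722 to 0.848), which was not called, and 1.04 with the combination (0.965 to 1.12; exact binomial p = 0.294). With Dox it fell in the shG9a line, from 11.2 to 5.08 FPKM, a ratio of 0.452 (0.401 to 0.509; exact binomial p = 1.82e-42), and only 5.89% of tested genes had a lower change. In the shLSD1 line it had 9.09 FPKM without and 9.55 FPKM with Dox (ratio 1.05, 0.949 to 1.16; exact binomial p = 0.343). The uninduced lines already differed for this gene, at 9.09 and 11.2 FPKM (ratio 1.24, 1.12 to 1.36), the widest gap between untreated libraries among the 7.

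TET2 was the eraser whose levels fell most. TET2 (ENSG00000168769, chromosome 4 from 105145875 to 105279816) was at 3.24 FPKM in vehicle, 3.74 after SP2509, 2.58 after UNC0642 and 1.28 after the combination. The combination was thus below each inhibitor alone, with a ratio to vehicle of 0.397 (0.349 to 0.450; exact binomial p = 7.96e-53), whereas the ratio was 1.16 with SP2509 (1.06 to 1.27) and 0.796 with UNC0642 (0.720 to 0.879), both uncalled. With Dox it fell in the shLSD1 line, from 2.22 to 1.36 FPKM (ratio 0.613, 0.540 to 0.697; exact binomial p = 1.10e-14). In the shG9a line it had 2.24 FPKM without and 1.67 FPKM with Dox, a ratio of 0.745 (0.660 to 0.842), which was not called with a pseudocount of 1 but was called with 0.1 and after centring.

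TET3 (ENSG00000187605, chromosome 2 from 73986404 to 74108176) was the most abundant eraser in every library. It reached 7.25 FPKM in vehicle, 5.66 after SP2509, 7.57 after UNC0642 and 10.3 after the combination. Only the last was called, at a ratio of 1.42 (1.33 to 1.52; exact binomial p = 3.57e-25), and it was opposite in direction to TET2 in the same library. The 4 libraries of the genetic arm lay between 3.83 and 3.96 FPKM, and their reads did not separate any adjacent pair. TET3 shares 390 exonic bases with the transcript ENSG00000235499 on the same strand, which is listed in neither table. TET1 (ENSG00000138336, chromosome 10 from 68560656 to 68694482) had 0.128 to 0.272 FPKM, from 20 to 45 reads per library. No treated library was separated from its own control for TET1, and the gap nearest to it, 0.227 FPKM with vehicle against 0.128 with the combination, had a ratio of 0.562 (0.306 to 1.01; exact binomial p = 0.0533). Its highest and lowest inhibitor libraries, SP2509 with 45 reads and the combination with 20, differed on their reads (exact binomial p = 0.00410), a pair compared after the values were seen.

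**Figure D3:**
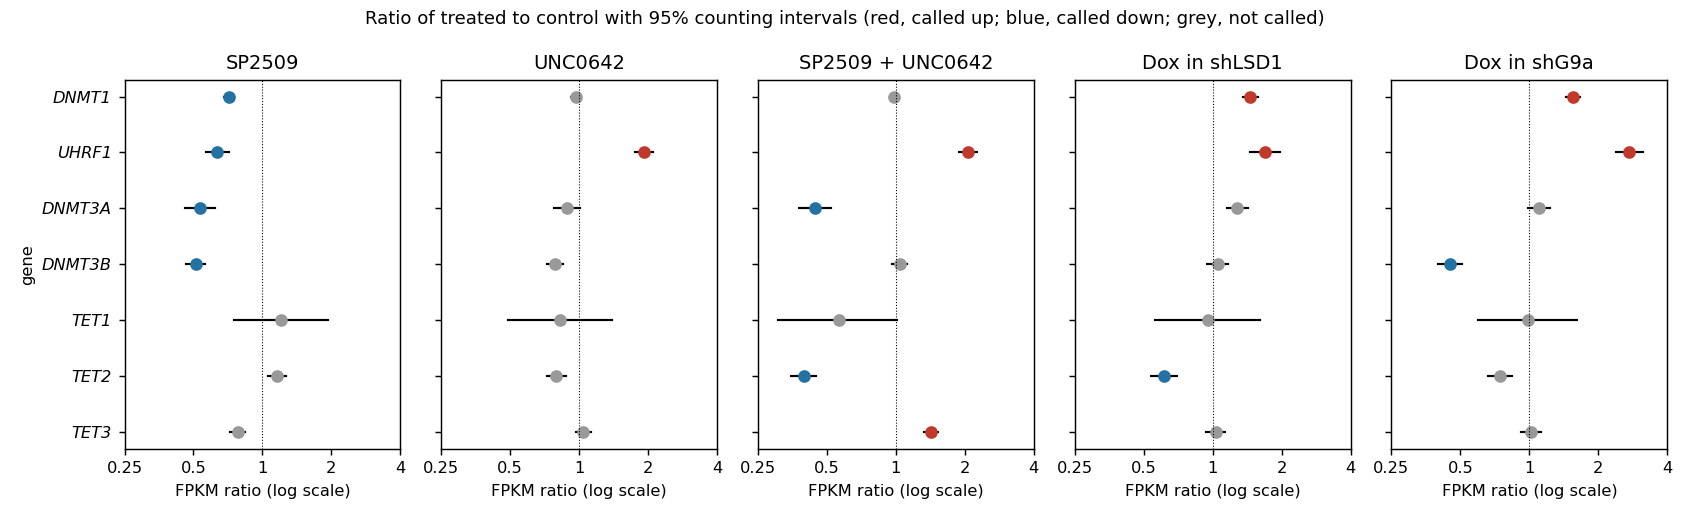
FPKM ratio of treated to control on a log axis for the 7 genes in each comparison, with points coloured by call and bars for the 95% counting interval. The bars of TET1 are the widest (0.306 to 1.01 with the combination), and those of DNMT1, which has the most reads, the narrowest (0.681 to 0.754 with SP2509).

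The uninduced lines, which differ in their hairpin construct, are the nearest to repeated untreated cultures. Between them 1.36% of tested genes were higher and 2.16% lower in the shG9a line by the same thresholds (3.52% in either direction), and 0 of the 7 genes passed them. The log2 difference of the 7, shG9a over shLSD1, ran from 0.01 for TET2 to 0.28 for DNMT3B, with 0.10 for DNMT1 and 0.15 for UHRF1. This pair of libraries gives no estimate of the spread between cultures. Within each table, 42 pairs of libraries adjacent in the order of a gene's level were compared on their reads, and 21 were separated. The pairs not separated included vehicle, the combination and UNC0642 for DNMT1, vehicle and the combination for DNMT3B, vehicle and UNC0642 for DNMT3A and for TET3, the uninduced lines for DNMT1, UHRF1, DNMT3A, TET2 and TET3, and all pairs for TET1. For UHRF1, the combination was separated from UNC0642 by a narrow margin (exact binomial p = 0.0498).

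The balance between related genes also changed, as ratios of FPKM values within a library, which are not affected by library scaling. UHRF1 over DNMT1 was 0.379 with vehicle and 0.337 with SP2509, whereas UNC0642 gave 0.753 and the combination 0.795. Among the knockdown libraries it was 0.475 and 0.550 in the shLSD1 line without and with Dox, and 0.505 and 0.893 in the shG9a line. The 3 libraries in which G9a was inhibited or silenced thus had the highest values. DNMT3B over DNMT3A was 6.27 to 7.10 in vehicle and the single inhibitor libraries, and 16.6 with the combination. It went the other way with Dox in the shG9a line, from 3.77 to 1.55, and from 3.29 to 2.69 in the shLSD1 line. TET3 over TET2 was 8.04 with the combination against 1.51 to 2.94 in the other 7 libraries, and TET3 made up 88.0% of the summed TET values there against 67.7% with vehicle. In the inhibitor table the sum of the 3 TET genes ran from 9.67 to 11.7 FPKM, while TET2 ran from 1.28 to 3.74 FPKM and TET3 from 5.66 to 10.3 FPKM. In the knockdown table the sum ran from 5.50 to 6.36 FPKM.

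**Figure D4:**
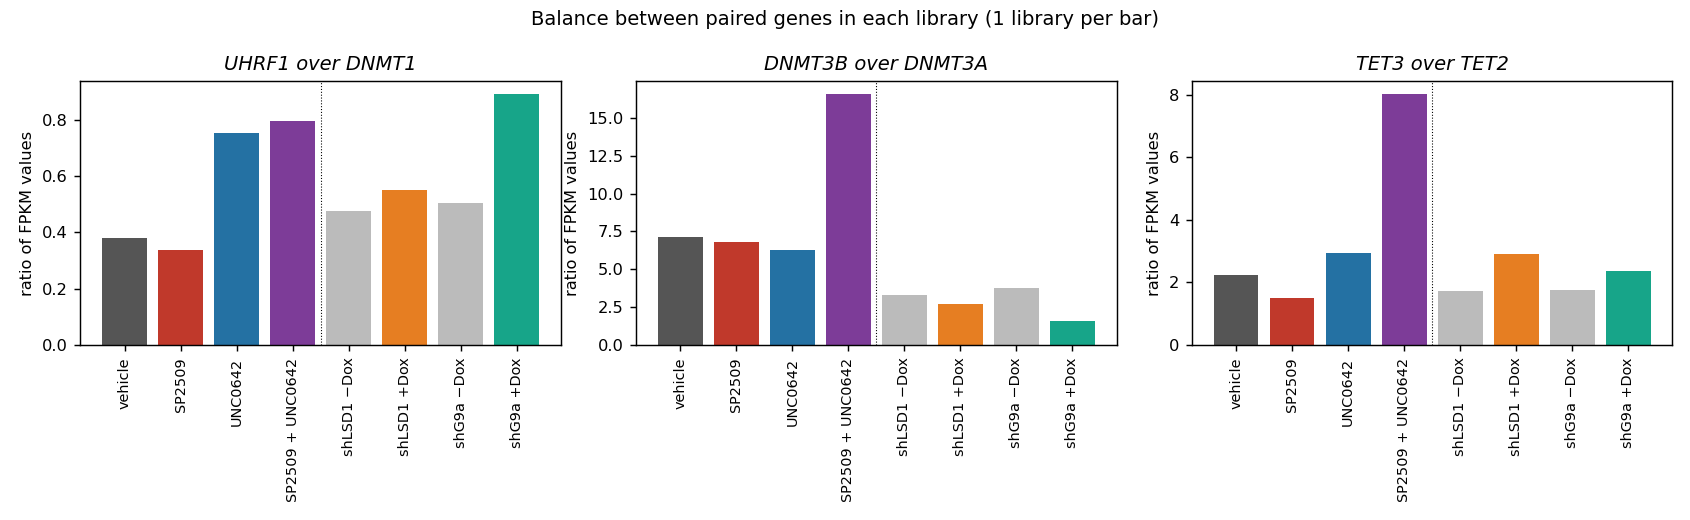
Ratio of FPKM values of 3 gene pairs in each of the 8 libraries, 1 library per bar, with a dotted line between the tables. UHRF1 over DNMT1 is highest with Dox in the shG9a line (0.893), and DNMT3B over DNMT3A (16.6) and TET3 over TET2 (8.04) are highest with the combination.

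Levels also differed between the arms, which were normalized as separate tables, so these values are set side by side without a test. DNMT1 had 15.8 to 22.1 FPKM in the inhibitor table and 6.66 to 11.1 FPKM in the knockdown table, and TET3 had 5.66 to 10.3 and 3.83 to 3.96 FPKM. These ranges did not overlap, whereas those of UHRF1, DNMT3B, TET1 and TET2 did. The share of all genes whose ranges are apart was not determined, so a gap cannot be read as particular to a gene. DNMT3A was the exception in direction, with 1.12 to 2.51 FPKM in the inhibitor table and 2.76 to 3.55 FPKM in the knockdown table. The gene length behind the FPKM values was the same in both tables for each of the 7 genes, as recovered from the steps.

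UHRF1 and DNMT1 are expressed mostly around S phase, so genes of replication and E2F targets were read beside them. Of 16 such genes, 15 were tested with SP2509, of which 2 were up and 8 down, with a median log2 change of -0.54. With UNC0642, 6 of 16 were up and 1 down (median 0.25), and with the combination 9 were up and 3 down (median 0.39). With Dox, 11 of 15 were up and 0 down in each line (medians 0.54 in the shLSD1 and 0.79 in the shG9a line). For comparison, the shares of all tested genes called up and down were 18.2% and 37.5% with SP2509, 15.8% and 14.0% with UNC0642, 29.0% and 29.1% with the combination, 22.7% and 10.4% in the shLSD1 line, and 30.0% and 15.8% in the shG9a line, and the lists below were not tested against them. The sign of UHRF1 matched that of the list median in all 5 comparisons. As the list was chosen with earlier results of these data known, this match is a description only. DNMT1 was uncalled with UNC0642 and the combination, and the part of these genes in the changes of UHRF1 and DNMT1 was not tested. The list did not move as one. CDT1, a replication licensing factor, had the largest change with SP2509 and rose there (11.3 to 29.8 FPKM), opposite to UHRF1, while MCM6, a subunit of the replicative helicase, fell (26.7 to 10.8 FPKM). CDC6, another licensing factor, fell with SP2509 (24.97 to 11.8 FPKM) and also with UNC0642 (14.9 FPKM), where UHRF1 rose. CCNE1, which encodes cyclin E1, rose from 1.002 FPKM in vehicle to 3.46 with UNC0642 and 7.64 with the combination, and from 1.09 to 4.96 FPKM in the shG9a line. MKI67, a proliferation marker, rose in the shLSD1 line from 3.17 to 6.62 FPKM. RRM2, a subunit of ribonucleotide reductase, fell by 0.98 on the log2 scale with SP2509 and rose by 0.56 with UNC0642, 1.28 with the combination, 1.39 in the shLSD1 line and 1.90 in the shG9a line. E2F1, a transcription factor of the G1/S transition, rose from 7.86 to 30.8 FPKM with the combination, in the shG9a line from 3.74 to 12.0 FPKM, and in the shLSD1 line to 7.30 FPKM.

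**Figure D5:**
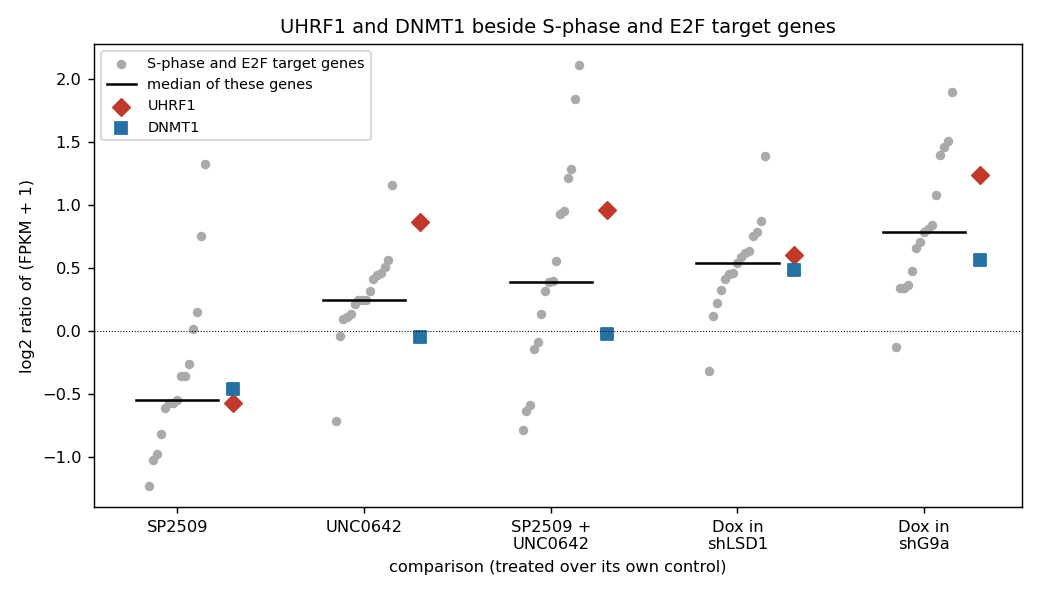
Log2 ratio of (FPKM + 1) of the tested S-phase and E2F target genes (grey points, with the median as a line), of UHRF1 (diamond) and of DNMT1 (square) in each comparison. The list median and UHRF1 are below 0 with SP2509 and above 0 in the other 4 comparisons.

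Among 14 partners of the methylation machinery, 11 were tested in each comparison. With SP2509, 1 was up and 8 were down, and with UNC0642 1 was up and 2 down. With the combination 1 was up and 3 down, in the shLSD1 line 6 were up and 0 down, and in the shG9a line 5 were up and 1 down. CXXC5, a CpG-binding zinc finger protein, had the largest change of the list with SP2509, UNC0642 and Dox in the shLSD1 line. From 12.9 FPKM in vehicle it fell to 2.17 after SP2509, 5.46 after UNC0642 and 5.86 after the combination, the latter pair opposite to UHRF1, and in the shLSD1 line it rose from 12.2 to 24.5 FPKM. CDCA7, which works with HELLS, fell with SP2509 (27.9 to 20.5 FPKM) and with the combination (10.4 FPKM), the latter also opposite to UHRF1. With Dox CDCA7 rose in the shLSD1 line (9.36 to 14.0 FPKM) and the shG9a line (9.34 to 20.7 FPKM). LIG1, the replicative DNA ligase, fell with the combination from 11.6 to 7.43 FPKM and rose in the shG9a line from 4.58 to 12.3 FPKM. TRIM28, a corepressor, fell with SP2509 (60.4 to 29.8 FPKM) and rose in the shG9a line (49.7 to 69.2 FPKM). OGT, a TET-binding glycosyltransferase, fell with SP2509 (27.8 to 18.5 FPKM) and UNC0642 (20.8 FPKM) and rose in the shLSD1 line (14.8 to 24.0 FPKM). PCNA, the replication clamp that binds DNMT1, was at 60.2 FPKM in vehicle, 21.1 after SP2509, 108 after UNC0642 and 144 after the combination. With Dox it rose in both lines, from 22.9 to 43.4 FPKM (shLSD1) and from 28.3 to 76.3 FPKM (shG9a). Its order over the libraries of each table was that of UHRF1. HELLS, a chromatin remodeler needed for DNA methylation, was called down with SP2509 (log2 change -0.48) and up in the shLSD1 and shG9a lines (0.56 and 0.81). UHRF2, the paralog of UHRF1, was called up with SP2509 (0.59), opposite to UHRF1. DNMT3L, the catalytically inactive cofactor of the de novo enzymes, was below 1 FPKM in every library.

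For removal of oxidized bases and supply of TET cofactors, 14 genes were listed, and 12 were tested with SP2509 (2 up, 5 down), 12 with UNC0642 (0 up, 4 down), 13 with the combination (4 up, 3 down), 13 in the shLSD1 line (2 up, 2 down) and 14 in the shG9a line (5 up, 3 down). All tested genes were called up and down at 18.2% and 37.5% with SP2509 and at 29.0% and 29.1% with the combination, near the shares of this list. With UNC0642 the shares of all tested genes were 15.8% and 14.0%, and the list, with 0 up and 4 down of 12, was not near them. In the shLSD1 line they were 22.7% and 10.4%, and in the shG9a line 30.0% and 15.8%. TDG, the glycosylase that excises oxidized cytosine made by the TET enzymes, rose from 20.1 to 40.7 FPKM with the combination and from 11.5 to 16.4 FPKM in the shG9a line. IDH1, which makes alpha-ketoglutarate, fell with SP2509 (90.1 to 26.6 FPKM), UNC0642 (61.6) and the combination (49.6), and rose in the shLSD1 line (91.2 to 154 FPKM) and the shG9a line (99.0 to 134 FPKM). GADD45A, a stress gene also linked to demethylation, rose from 30.4 to 226 FPKM with SP2509 and to 57.5 FPKM with the combination. With Dox it fell, from 45.6 to 10.2 FPKM (shG9a) and from 40.9 to 19.99 FPKM (shLSD1). Its relative GADD45B rose with SP2509 (8.90 to 24.4 FPKM) and the combination (19.6 FPKM). With Dox GADD45B fell, from 32.4 to 14.7 FPKM (shLSD1) and from 33.1 to 6.40 FPKM (shG9a). GADD45G went from 0.145 FPKM (3 reads) to 2.82 FPKM (63 reads) with the combination and from 1.37 to 0.480 FPKM in the shG9a line. MBD4, a glycosylase for mismatched thymine, fell with SP2509 (20.4 to 7.25 FPKM) and UNC0642 (14.3 FPKM) and rose in the shLSD1 line (9.97 to 15.3 FPKM). D2HGDH, which converts 2-hydroxyglutarate, fell with UNC0642 (5.99 to 3.99 FPKM) and the combination (0.999 FPKM).

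The S-adenosylmethionine cycle supplies the methyl group used by the DNMT enzymes. Of its 10 listed genes 8 were tested, of which 0 were up and 6 down with SP2509, 0 up and 2 down with UNC0642, 0 up and 4 down with the combination, 4 up and 0 down in the shLSD1 line, and 5 up and 2 down in the shG9a line. MAT2A, which makes S-adenosylmethionine, had 84.8 FPKM with vehicle and 10.1 FPKM with SP2509, and rose with Dox in both lines, from 47.8 to 95.2 FPKM (shLSD1) and from 44.6 to 74.1 FPKM (shG9a). For the combination it had 67.1 FPKM and was not called. AHCYL1, a relative of the S-adenosylhomocysteine hydrolase, fell with SP2509 (49.7 to 15.02 FPKM) and the combination (24.0 FPKM). MTRR, which reactivates methionine synthase, fell with SP2509 (24.5 to 9.33 FPKM), UNC0642 (16.2 FPKM) and Dox in the shG9a line (12.1 to 6.95 FPKM), and rose in the shLSD1 line (9.75 to 14.9 FPKM). MAT2B, the regulatory partner of MAT2A, fell with UNC0642 (27.3 to 18.8 FPKM) and the combination (15.1 FPKM) and rose in the shG9a line (21.999 to 38.2 FPKM). MTR, the methionine synthase, fell with the combination (5.84 to 2.98 FPKM). Of 7 genes from families of methyl-CpG readers, not each of which need bind methylated CpG, all were tested. With SP2509 0 were up and 2 down, and with UNC0642 0 up and 1 down. With the combination 3 were up and 2 down, and in each shRNA line 2 were up and 0 down. MBD1 rose from 5.26 to 11.8 FPKM with the combination, while ZBTB33 fell (11.1 to 7.82 FPKM). MBD3 fell from 3.62 to 1.05 FPKM with SP2509 and rose in the shLSD1 (4.40 to 6.14 FPKM) and shG9a lines (4.12 to 6.74 FPKM). ZBTB38 fell with SP2509 (4.41 to 2.70 FPKM) and UNC0642 (2.83 FPKM) and rose in the shLSD1 line (2.07 to 3.64 FPKM), and ZBTB33 rose in the shG9a line (7.76 to 10.7 FPKM).

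Genes whose promoters are known to be silenced by methylation in somatic cells were read as well. Of 18 germline and cancer-testis genes, 8 were listed in the inhibitor table and 9 in the knockdown table, and 2 and 3 of them entered a test. The counts were 0 up and 2 down with SP2509, 0 and 0 with UNC0642, 2 and 0 with the combination, and 2 and 0 in each shRNA line. MAGEA3 was already at 45.9 FPKM with vehicle, fell to 29.3 FPKM with SP2509 and rose to 66.3 FPKM with the combination. With Dox it rose from 36.2 to 53.4 FPKM (shLSD1) and from 41.3 to 62.1 FPKM (shG9a), and its reads could be shared with its near copy MAGEA6, which was called down with SP2509 (1.27 to 0.724 FPKM) and up with the combination (3.05 FPKM) and in the shLSD1 line (0.695 to 1.35 FPKM). STK31 was called up in the shG9a line, from 0.743 to 1.34 FPKM. DDX4, MAGEA4 and SYCP3, listed in both tables, stayed below 1 FPKM in every library. Among 14 imprinted genes, H19 fell with UNC0642 (207 to 87.6 FPKM), the combination (26.2), and Dox in the shLSD1 (497 to 301 FPKM) and shG9a lines (483 to 237 FPKM), and was level with SP2509 (207 FPKM). PEG10 was called down in all 5 comparisons, with log2 changes of -0.69 with SP2509, -1.26 with UNC0642, -1.23 with the combination, -0.67 in the shLSD1 line and -0.42 in the shG9a line. PLAGL1 was called up with SP2509 (5.65 to 10.3 FPKM) and the combination (15.9 FPKM) and down with Dox, from 7.02 to 4.89 FPKM (shLSD1) and from 6.65 to 1.90 FPKM (shG9a). NNAT rose with UNC0642 (3.10 to 5.65 FPKM), and CDKN1C had 0.0494 FPKM (2 reads) in vehicle and 1.65 FPKM (72 reads) with the combination. The list counts were 1 up and 1 down of 5 tested with SP2509, 1 and 2 of 5 with UNC0642, 2 and 2 of 6 with the combination, 0 and 3 of 4 in the shLSD1 line and 0 and 3 of 5 in the shG9a line.

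The genes nearest to each of the 7 were sought among 11376 genes tested in every comparison, by the Euclidean distance over the 5 log2 changes. They are given as a description, since 3 of the 5 changes share the vehicle library. The genes nearest to UHRF1 were TUBB4B at a distance of 0.43 and AHSA1 at 0.43. For DNMT3B they were SEC23B (0.29) and SLC38A1 (0.30), and for DNMT1 ERG28 (0.12) and C2orf27A (0.13). DNMT3A was closest to FIP1L1 (0.13) and XPO4 (0.17), TET2 to NBAS (0.17) and R3HDM2 (0.18), and TET3 to BCL9L (0.14) and LINC02210 (0.14). TET1, which was not tested, was closest to MAPK8 (0.08) and ASPSCR1 (0.10), all of them near 0 in each comparison. At its low level the pseudocount of 1 holds the changes of TET1 near 0, so this closeness was set by the scale. With a pseudocount of 0.1 the log2 change of TET1 with the combination was -0.52.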

How the data were processed

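RNA-seq of 8 Kyse510 libraries was analysed, with groups from the sample labels. The authors removed low-quality and adapter-contaminated reads, mapped paired-end reads of 150 bases to the human genome (GRCh38), and deposited FPKM values in 2 tables. The aligner, the counting tool and the use of strand are not given in the sources used here. Reads were recovered as whole numbers. In genes with 1 exon in GENCODE release 44 the FPKM steps gave each library total (99.5% to 99.7% of their values were whole within 0.0001), and each other gene got the smallest length that made all its values whole, or a multiple of it (up to 4 times, and up to 1.3 times the reference length) matching the reference or the other table. Chosen reads summed to 99.6% to 99.8% of the totals. The procedure was tested on simulated data with known reads and changes. The simulated libraries held counting error only, so this test cannot show how calls fare under the spread between cultures. Comparisons, thresholds and the exact binomial test are as described in the report, and the study's methods give the same fold and p thresholds but name no test. Genes were named by a rule: the 7 members, both targets, the up to 3 called genes with the largest change in each list and comparison, and the 2 nearest genes of each member (some genes the rule selects are not reported here); HELLS, UHRF2, DNMT3L, TDG, DDX4, MAGEA4 and SYCP3, some comparisons of other listed genes, and the highest against the lowest library of each gene, fall outside it and were chosen after their values were seen. The alternatives were a pseudocount of 0.1, no filter on low values, 5 FPKM as the minimum, 2 as the fold threshold, fold change alone, Benjamini-Hochberg adjustment, centring, upper quartile scaling, the mean of both uninduced lines as control, and the fewest reads per gene. The members and lists were chosen with earlier results of these data known. Python 3.11.15, numpy 2.4.6, pandas 2.3.3 and scipy 1.17.1 were used.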

Additional observations from a re-analysis of the deposited data

Results flagged for a closer look

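DNMT3B differed in direction between the shRNA lines when Dox was given, with a log2 change of 0.06 in the shLSD1 line and -1.01 in the shG9a line, where it fell from 11.2 to 5.08 FPKM. The 95% counting intervals of the FPKM ratios (0.949 to 1.16 and 0.401 to 0.509) do not overlap, but each line has 1 library per condition, and the difference between the lines was not tested against any spread between cultures. The change in the shLSD1 line was not called, and its sign turned with centring, with upper quartile scaling and with the mean of both uninduced lines as control.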

How the results depend on the processing

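Of 294 changes of the 7 genes recomputed under the alternatives, 263 kept their direction and their side of the threshold, 19 lost the call, 2 gained it (TET2 in the shG9a line, with a pseudocount of 0.1 and with centring) and 10 turned sign. All 10 were uncalled changes near 0. With centring on the median, DNMT3B (-0.0459) and TET3 (-0.0739) turned in the shLSD1 line and DNMT3A (-0.0396) and TET3 (-0.1245) in the shG9a line. With upper quartile scaling, DNMT3B turned with the combination (-0.0023) and in the shLSD1 line (-0.0087), and TET3 in the shLSD1 (-0.0278) and shG9a lines (-0.0013). With the mean of both uninduced lines as control, DNMT3B turned in the shLSD1 line (-0.0811) and TET1 in the shG9a line (0.0153). At a fold threshold of 2, 0 of the 7 genes were called with SP2509, UNC0642, the combination and the shLSD1 line, and 2 (UHRF1 and DNMT3B) in the shG9a line, while all genes called numbered 2531, 805, 2843, 672 and 1241 against 7436, 3946, 8079, 4293 and 5987 at 1.3. With a minimum of 5 FPKM, the called genes among the 7 went from 4 to 2 with the combination (DNMT3A and TET2 lost), from 4 to 3 with SP2509 (DNMT3A lost) and from 3 to 2 in the shLSD1 line (TET2 lost), since these genes are below it, and all genes called numbered 4400, 2324, 4948, 2687 and 3789. Benjamini-Hochberg adjustment, fold change alone, and no filter on low values changed no call of the 7 genes, and the fewest reads per gene changed no count of them. No paired analysis was possible because each condition has 1 library. The reads limit TET1 most, and with no replicates the intervals cover counting error only.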
